A study of Mus musculus with 4 samples.

Results

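The genes described here are 9 cohesin genes and cohesin partners of the mouse, out of 21887 protein-coding genes of RefSeq GRCm38.p6, and they were chosen by name. Of these, 6 are grouped as meiosis-specific (Rec8, Stag3, Smc1b, Rad21l, Sgo2a and Meikin) and 3 as general cohesin subunits (Rad21, Smc3 and Stag1). The grouping came with the list and was not tested here. ATAC-seq, which uses a transposase to cut and tag open DNA, was run on female C57BL/6 germ cells of embryonic day 15.5 sorted by an Oct4-EGFP reporter. All 4 libraries carried that reporter. The Control group had 2 libraries and so had the Snf5 CKO group, a conditional knockout of Snf5. The gene, Smarcb1 in current naming, encodes a subunit of SWI/SNF complexes, which slide and evict nucleosomes. The sources used here give neither the Cre driver nor the alleles. No label says whether replicates are different animals, and their spread may therefore be technical only.

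Cohesin is a ring that holds sister chromatids together and folds chromatin into loops. In dividing somatic cells the ring is built from a pair of SMC proteins, the kleisin RAD21 that closes it, and a STAG subunit. Germ cells that enter meiosis add their own versions: the kleisins REC8 and RAD21L, the SMC protein SMC1B and the STAG protein STAG3. These build the chromosome axis on which homologues pair and recombine, and REC8 later keeps sister centromeres together through the first division, protected by the shugoshin SGO2 and helped by the kinetochore protein MEIKIN. SMC3 serves both kinds of ring. Female germ cells at this stage are in meiotic prophase.

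The lists held between 28625 peaks (Snf5 CKO 2) and 45422 peaks (Snf5 CKO 1), and the controls lay between, at 39465 and 36730. Read depth is unknown, so a missing peak can also mean an open site that a library was too shallow to show. Smarcb1 had a peak within 1 kb of a gene end in both controls and in neither Snf5 CKO library. All 6 germ cell markers had a peak at a gene end or annotated start in all 4 libraries. Markers of other cells were open as well, 3 of 4 for ovarian supporting cells in every library, 3, 2, 2 and 0 of 3 for stroma, 2, 1, 1 and 1 of 3 for endothelium and 1, 2, 1 and 1 of 3 for blood in the order Control 1, Control 2, Snf5 CKO 1 and Snf5 CKO 2. An open promoter does not show that a gene is expressed, and the part of other cells in the values below was not tested.

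The promoters that carried the peaks are shown first, as RefSeq gives them for GRCm38.p6, from 250 bases before to 50 bases after the annotated start. RefSeq starts were found for 7 of the 9 genes, with 2 starts for Sgo2a. The meiosis-specific genes Stag3 and Smc1b are set beside the general gene Stag1 because all 3 hold the same short E2F-type letters near the start, and Sgo2a is shown at the start that was open. All are written 5′ to 3′ on the gene's own strand, and capitals mark CACGTG (the E-box core), CCAAT (bound by NFY) and GCGGGAA (an E2F-type core) on either strand.
Stag3, plus strand, chr5:138280259-138280558: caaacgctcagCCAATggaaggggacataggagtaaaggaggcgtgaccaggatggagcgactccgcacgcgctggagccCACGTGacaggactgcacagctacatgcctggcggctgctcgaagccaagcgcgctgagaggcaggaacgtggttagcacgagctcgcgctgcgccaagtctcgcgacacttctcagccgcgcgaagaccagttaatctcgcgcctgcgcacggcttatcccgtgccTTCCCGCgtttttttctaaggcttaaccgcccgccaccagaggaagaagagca
Smc1b, minus strand, chr15:85131908-85132207: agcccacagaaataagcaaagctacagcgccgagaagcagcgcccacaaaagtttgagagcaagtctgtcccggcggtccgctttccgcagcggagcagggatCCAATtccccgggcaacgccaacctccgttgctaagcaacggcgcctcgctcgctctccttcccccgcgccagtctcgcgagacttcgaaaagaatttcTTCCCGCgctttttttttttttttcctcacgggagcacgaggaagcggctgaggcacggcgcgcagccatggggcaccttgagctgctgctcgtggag
Stag1, plus strand, chr9:100643198-100643497: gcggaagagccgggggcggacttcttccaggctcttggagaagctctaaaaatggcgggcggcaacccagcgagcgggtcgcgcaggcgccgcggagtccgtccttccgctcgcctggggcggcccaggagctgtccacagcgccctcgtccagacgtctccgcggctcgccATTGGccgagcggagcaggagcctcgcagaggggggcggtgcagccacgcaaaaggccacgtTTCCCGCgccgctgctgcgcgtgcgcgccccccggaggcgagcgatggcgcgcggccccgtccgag
Sgo2a, plus strand, chr1:57995724-57996023: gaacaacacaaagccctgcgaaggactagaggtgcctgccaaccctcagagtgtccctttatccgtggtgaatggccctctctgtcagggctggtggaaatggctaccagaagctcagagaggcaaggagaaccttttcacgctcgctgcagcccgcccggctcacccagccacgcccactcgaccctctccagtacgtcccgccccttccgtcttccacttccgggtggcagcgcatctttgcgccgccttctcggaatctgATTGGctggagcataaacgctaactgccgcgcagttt

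GCGGGAA or its reverse complement TTCCCGC stood in the windows of Stag3, Smc1b and Stag1 and in the closed first window of Sgo2a, 4 of the 8 windows, against 4.60% of the 32851 promoter windows of the table. Counted in bases from the start, it stood at -3 in Stag3, -48 in Smc1b and -16 in Stag1. These letters were chosen after the sequences had been seen. CACGTG was found in Stag3 alone (7.15% of all windows), and TCACGTGA, its longer palindrome bound by MGA and MAX (0.974%), in none. GGCGGGAA, a longer E2F site (2.19%), and CNCCTCAG, the letters reported for STRA8 and MEIOSIN (7.94%), were in none of the 8. CCAAT stood in 7 windows, all but that of Smc3, against 37.4% of all windows, and GGGCGG, the GC box of SP1, in 4 against 35.7%. Both strands were searched, CACGTG lies inside TCACGTGA and GCGGGAA inside GGCGGGAA. A match is a description of the letters and not a binding site. The shares are over all windows, of which 17434 had no peak in any library and a median of 3 CpG. Shares among open or CpG-rich windows alone were not taken.

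Every one of the 9 genes had 1 region, in the gene or within 1 kb of it, where all 4 libraries had a peak. Peaks of the 4 lists that overlapped by at least 1 bp were merged for this, and such a region is called kept. Within 10 kb, a wider interval, kept regions were found for 68.7% of all genes (15038 of 21887). A kept region nearby is thus common, though the share within 1 kb was not taken. For Rad21 and Meikin no annotated start was found, so whether their kept regions lie over a start is not known here. At 6 of the 9 genes the kept region lay over an annotated RefSeq start. Those 6 windows had 18 to 43 CpG dinucleotides, against a median of 24 for the 12205 windows with a peak in all 4 libraries and 3 for the 17434 windows with none.

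Among the kleisins, Rec8 (gene identifier 56739, chromosome 14, 55618002 to 55625395) had its kept region at the start, at 55617414 to 55618283. Rad21l (668929, chromosome 2, 151644366 to 151670622) had its own at 151669848 to 151671128, over the higher-coordinate gene end. Its annotated promoter window had 29.0% GC, 2 CpG and no peak in any library, and the nearest peak edge lay 1324 and 1315 bp away in the controls and 1578 and 1517 bp away in Snf5 CKO. Rad21 (19357, chromosome 15, 51962604 to 51993538) had its kept region inside the gene at 51990561 to 51992458, which ends 1080 bp from the higher gene end and so outside the 1 kb window, and where it also touched the gene Gm52217.

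Smc1b (140557, chromosome 15, 85064689 to 85131957) had its kept region at 85131119 to 85132614, which it shares with Ribc2, a gene that starts beside it. Smc3 (13006, chromosome 19, 53600396 to 53645831) had its kept region at 53599756 to 53601324 over the start. Among the STAG genes, Stag3 (50878, chromosome 5, 138272514 to 138312397) was kept at 138279659 to 138281072, over a start that lies inside the annotated gene and beside that of Gpc2. Stag1 (20842, chromosome 9, 100597709 to 100958544) was kept at 100642428 to 100644702, again over a start inside the annotated gene.

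Of the centromere proteins, Sgo2a (68549, chromosome 1, 57985340 to 58026277) was open at its second start, at 57995734 to 57996658, and had no peak in the promoter window of its first start in any library. That first window had 11 CpG and the second 19. Meikin (74847, chromosome 11, 54370652 to 54426790) had its kept region inside the gene at 54387285 to 54388629, which begins 16633 bp from the lower gene end. At that end only Control 1 had a peak, of 275 bp, a pattern of presence shared by 335 genes.

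**Figure D1:**
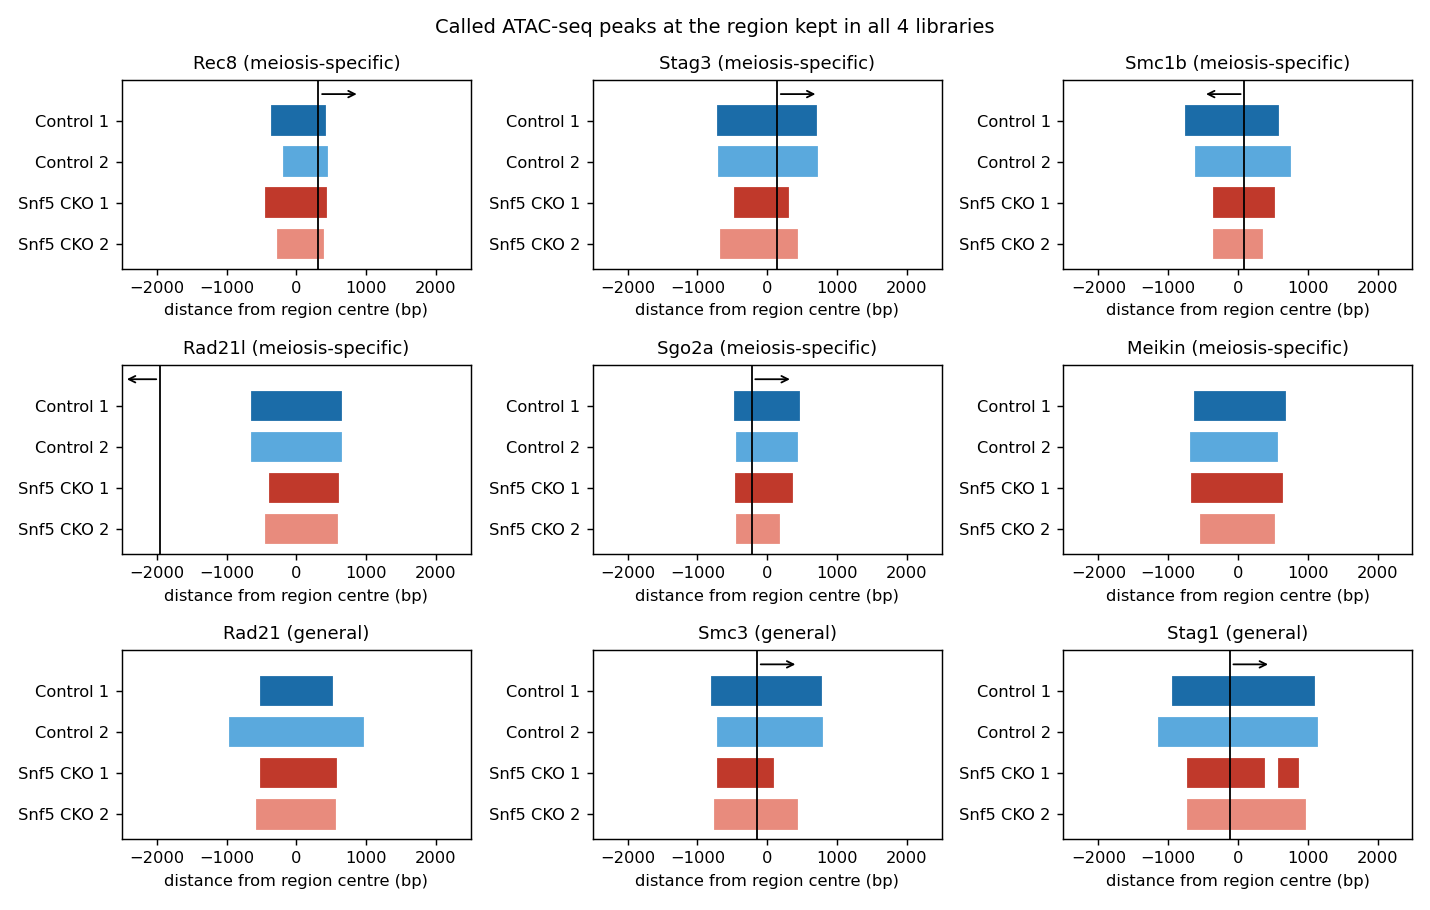
Called peaks of each library (bars, to scale) around the centre of the region kept in all 4 libraries, for the 6 meiosis-specific and 3 general genes, with distance in bp on the x axis in genome orientation. Vertical lines with arrows mark annotated starts and the direction of transcription, and every gene shows a bar in all 4 rows.

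Within 1 kb of the annotated gene ends alone, 4 of the 9 genes (Rec8, Smc1b, Rad21l and Smc3) had a peak in all 4 libraries, where 55.0% of all genes did. Stag1 was the only one that counted as lost, with a peak in both controls and neither Snf5 CKO library, as did 2.97% of all genes. None was gained (0.187% of all genes). Meikin had its single Control 1 peak, and Stag3, Sgo2a and Rad21 had no peak at a gene end in any library. With annotated starts added to the gene ends, 7 of 9 were kept, against 58.7% of all genes, and none was lost (2.78%). No annotated start was found for Rad21 or Meikin, so for these genes only the gene ends entered that count. Among the genes with a peak at an end in both controls, 4.84% were lost. At Stag1 the lost peak was at the lower gene end, the upstream boundary of this plus-strand gene. The annotated start inside the gene had a peak in all 4 libraries. The call at the gene end was not made when every peak had to reach a −log10 q of 3, nor with lists of equal length.

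Peaks at the kept regions of 6 genes were shorter in both Snf5 CKO libraries than in both controls, as at 60.2% of all 19423 kept regions. Smc1b, the meiotic SMC subunit, had 1325 and 1354 bp in the controls and 861 and 685 bp in Snf5 CKO. The pairs do not overlap, and the ratio of Snf5 CKO over control was 0.573 (log2 ratio -0.80, SE 0.17, n = 2 per group, limma adjusted p = 0.097 over 19423 kept regions). Stag3, the meiotic STAG subunit, had 1406 and 1391 bp in the controls and 759 and 1092 bp in Snf5 CKO. The ratio was 0.651 (log2 ratio -0.62, SE 0.22, limma adjusted p = 0.164).

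Smc3, the subunit shared by mitotic and meiotic rings, had 1559 and 1487 bp in the controls and 789 and 1163 bp in Snf5 CKO, again without overlap (log2 ratio -0.67, SE 0.23, limma adjusted p = 0.158). Stag1, a general STAG subunit, had the longest kept region of the 9, with 2012 and 2275 bp in the controls and 1344 and 1675 bp in Snf5 CKO (log2 ratio -0.51, SE 0.17, limma adjusted p = 0.154). In Snf5 CKO 1 this length was the sum of 2 peaks, of 1080 and 264 bp, where the other libraries had a single peak. The meiotic kleisin gene Rad21l had 1269 and 1281 bp in the controls and 968 and 1020 bp in Snf5 CKO (log2 ratio -0.36, SE 0.12, limma adjusted p = 0.147). At both genes the groups do not overlap. Sgo2a had 925 and 872 bp in the controls and 801 and 594 bp in Snf5 CKO (log2 ratio -0.38, SE 0.20, limma adjusted p = 0.259).

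The other 3 genes overlapped between the groups. Rec8, the kleisin cut at both meiotic divisions, had 767 and 616 bp in the controls and 855 and 641 bp in Snf5 CKO, and was the only gene with a mean length above the controls (log2 ratio 0.11, SE 0.22, limma adjusted p = 0.750). Of all kept regions 87.4% had a lower log2 ratio. Meikin had 1292 and 1234 bp in the controls and 1294 and 1052 bp in Snf5 CKO (log2 ratio -0.11, SE 0.16, limma adjusted p = 0.637). Rad21, the general kleisin, had 1012 and 1898 bp in the controls, farther apart than any other pair, and 1075 and 1126 bp in Snf5 CKO (log2 ratio -0.33, SE 0.35, limma adjusted p = 0.528).

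**Figure D2:**
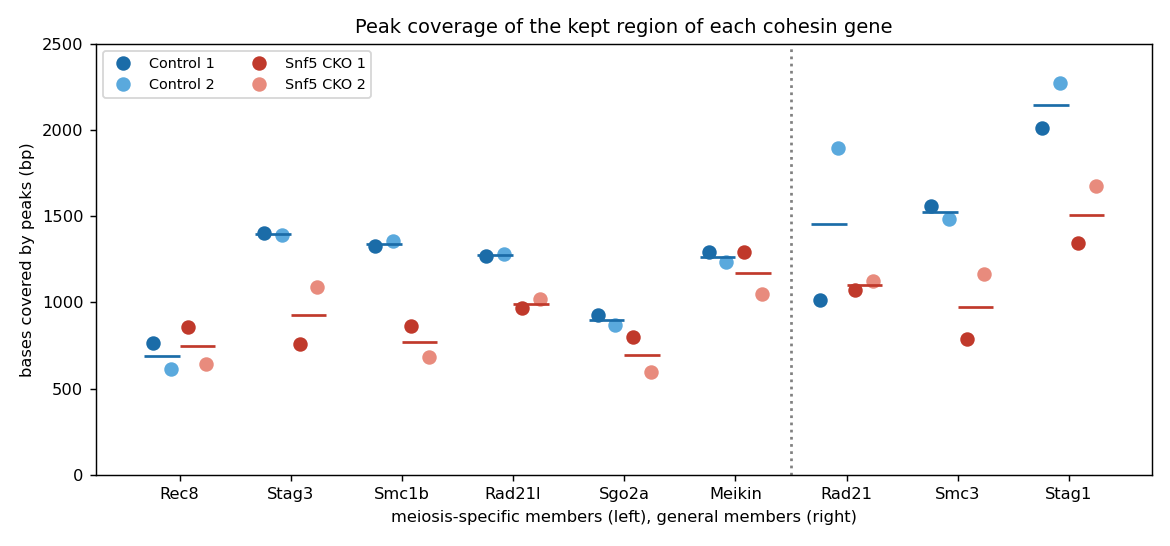
Bases covered by peaks in the kept region of each gene (y axis, bp, from 0), with a point for each library and a line at each group mean (n = 2). The Snf5 CKO points lie below both Control points at Stag3, Smc1b, Rad21l, Sgo2a, Smc3 and Stag1, and the groups overlap at Rec8, Meikin and Rad21.

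Shorter peaks were the general state of the data. Both Snf5 CKO lengths lay below both control lengths at 60.2% of all 19423 kept regions, and at 6 of 9 here. Both lay above both controls at 6.39% of regions, and at none of the 9. The median log2 ratio was -0.38 over the 9 genes, from -0.80 to 0.11, and -0.32 over all kept regions. None of the 9 genes passed an adjusted p of 0.05, and nor did any of the kept regions (0.0% called in either direction, limma, with 5951 regions and 4 of the 9 genes at an unadjusted p under 0.05). Against the shift of the library medians, which was -0.40 on the log2 scale, 4 genes lay below and 5 above, with a median of 0.02. The share and the median of the 9 genes are near those of all kept regions. Called lengths can shift with read depth and with background, and neither is known for these libraries.

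At the kept regions the meiosis-specific and the general genes lay in the same range. The median log2 ratio was -0.37 for the 6 meiosis-specific genes, from -0.80 for Smc1b to 0.11 for Rec8, and -0.51 for the 3 general genes, from -0.67 for Smc3 to -0.33 for Rad21. The range of the general genes lies wholly within that of the meiosis-specific ones. In each set a share of 66.7% had both Snf5 CKO libraries below both controls, 4 of 6 and 2 of 3. Genes are not replicates of a condition, so no p-value is given for the difference between the sets.

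**Figure D3:**
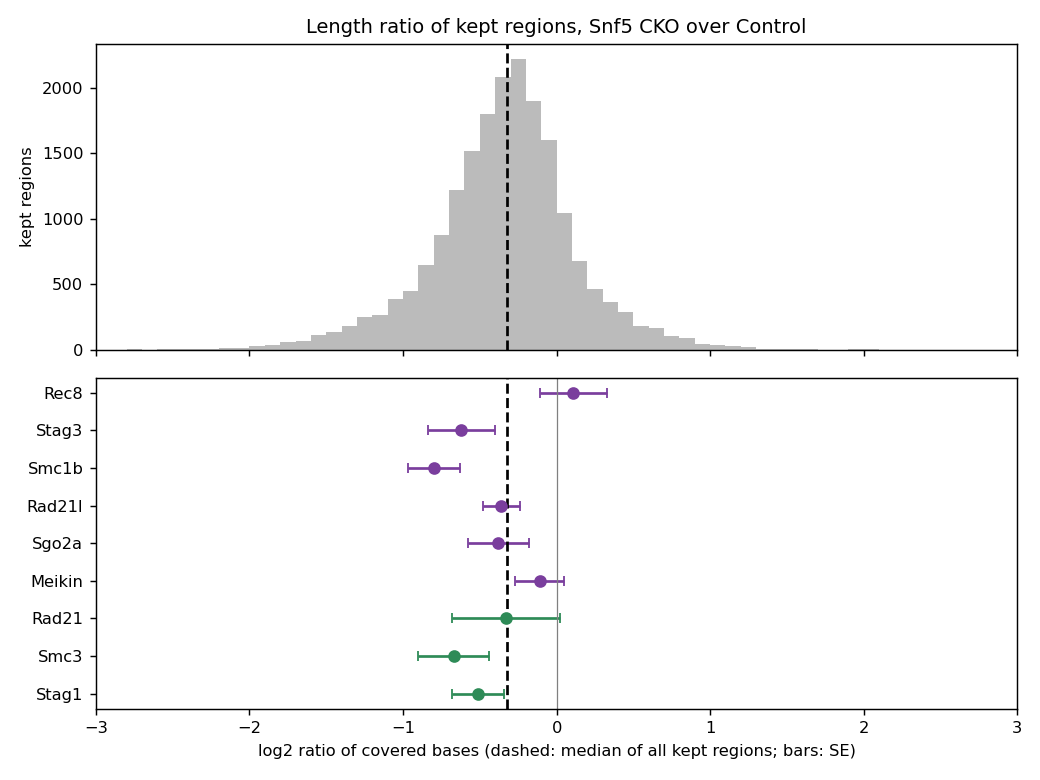
Log2 ratio of covered bases, Snf5 CKO over Control, for all 19423 kept regions (upper panel, number of regions per bin of width 0.1) and for the 9 genes (lower panel, points with SE, n = 2 per group, meiosis-specific in purple and general in green). The dashed line is the median of all kept regions at -0.32, and Rec8 is the only gene above 0.

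At the gene ends the same fit could be run for the 4 genes with peaks there in all 4 libraries. The lengths were those of the kept regions, and 3 of the 4 genes had both Snf5 CKO libraries below both controls, where 77.3% of genes did, and none had both above (1.27%). No gene of the 4 passed the test (lowest limma adjusted p = 0.0552 for Smc1b, then 0.094 for Rad21l, 0.102 for Smc3 and 0.688 for Rec8). Of all 12030 genes tested in this way 8.06% (970) had shorter peaks in Snf5 CKO at an adjusted p under 0.05, and 0.0333% (4) longer peaks. That count was 0 without Control 1, without Control 2 or without Snf5 CKO 2, and 1678 without Snf5 CKO 1. It was also 0 after centring on library medians.

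Where a kept region spans an annotated start, the side on which a peak ends can be read from the outer peak edges, a measure chosen after the data had been seen. At 5 of these 6 genes (Stag3, Smc1b, Sgo2a, Smc3 and Stag1) the downstream edge lay nearer the start in both Snf5 CKO libraries than in both controls. At 3 of them (Stag3, Smc1b and Stag1) the upstream edge did as well. Over the 7116 kept regions with a single annotated start, the shares were 68.9% for the downstream and 51.1% for the upstream edge, and the median differences were -155.75 and -77.5 bp. The regions of Stag3 and Smc1b hold further starts and are outside that class, and among the other 4 genes the counts were 3 for the downstream and 1 for the upstream edge.

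Smc3 had the largest downstream difference of the 6. Its peaks reached 918 and 928 bp downstream of the start in the controls and 222 and 565 bp in Snf5 CKO. Upstream they reached 640 and 558 bp in the controls and 566 and 597 bp in Snf5 CKO, and there the groups overlapped. At Sgo2a the upstream reach was 240 and 216 bp in the controls and 222 and 206 bp in Snf5 CKO, while the downstream reach was 684 and 655 bp against 578 and 387 bp. At both genes the groups did not overlap on the transcribed side and overlapped on the other, and the edges were not tested.

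At Stag3 the downstream reach was 555 and 563 bp in the controls and 158 and 287 bp in Snf5 CKO, and the upstream reach was 850 and 827 bp against 600 and 804 bp. At Smc1b the downstream reach was 838 and 696 bp in the controls against 439 and 435 bp in Snf5 CKO, and the upstream reach was 486 and 657 bp against 421 and 249 bp. At these 2 genes the upstream side also holds the start of another gene, Gpc2 and Ribc2. Stag1 reached 1204 and 1254 bp downstream in the controls and 971 and 1074 bp in Snf5 CKO, and upstream 807 and 1020 bp against 596 and 600 bp. The reach of 971 bp in Snf5 CKO 1 is the edge of a separate peak of 264 bp, with a fold enrichment of 2.32 and a −log10 q of 1.61. Rec8, with the shortest downstream reach of 93 and 117 bp in the controls and 102 and 58 bp in Snf5 CKO, overlapped on both sides.

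**Figure D4:**
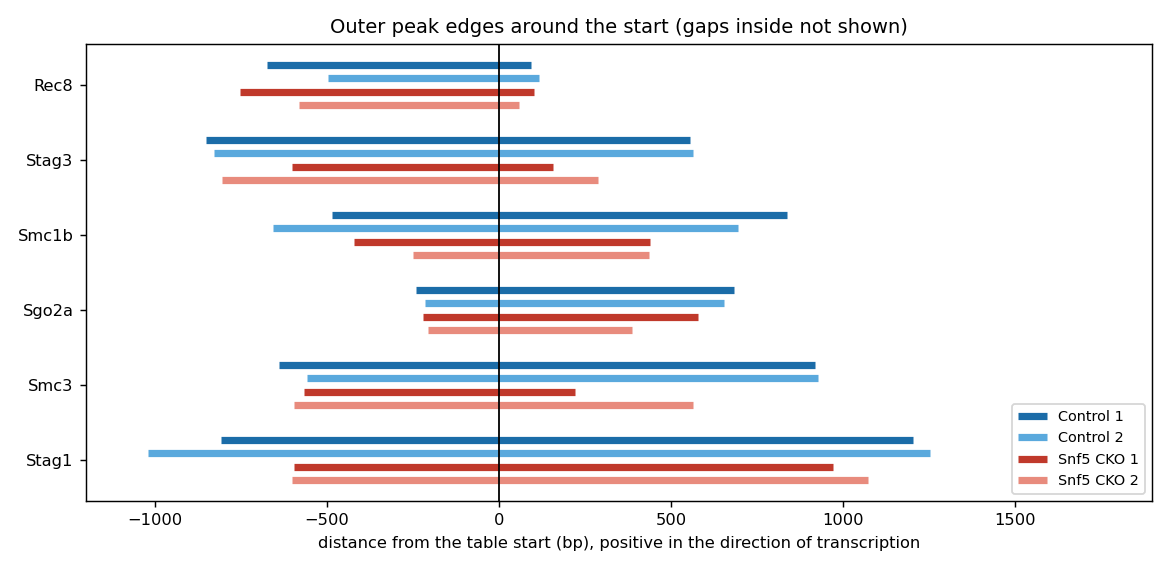
Reach of the outermost peak edges around the annotated start (0 on the x axis, bp, positive in the direction of transcription) for the 6 genes whose kept region spans a start, with a line for each library. At Smc3 and Sgo2a the lines of the Snf5 CKO libraries end sooner on the right side and overlap with the controls on the left.

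Fold enrichment, the authors' value for a peak over its local background, was read within each list only. The peak at the Stag3 start had 4.93 and 5.19 in the controls and 8.69 and 6.75 in the Snf5 CKO lists, above 80.9%, 86.1%, 98.9% and 92.7% of the peaks of its list. Sgo2a stood highest in the controls, with 6.71 and 7.12 (above 98.0% and 98.7% of the list), and had 6.96 and 6.51 in the Snf5 CKO lists (94.8% and 90.8%). Rec8 had 4.74, 6.38, 7.38 and 7.43 in the same order of libraries, above 76.8%, 96.9%, 96.5% and 96.0%. The peaks of these 3 genes were in the upper part of each list, and this was not particular to them. In the same order, Rad21l was above 94.5%, 91.6%, 71.0% and 80.5% of the lists. Smc3 was above 74.7%, 78.5%, 87.9% and 75.7%, and Rad21 above 89.3%, 57.6%, 76.7% and 66.8%. Meikin was above 61.9%, 57.7%, 55.4% and 45.6%.

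Smc1b was lower, with 4.63 and 4.55 in the controls and 3.71 and 4.66 in Snf5 CKO. Its Snf5 CKO 1 peak had a −log10 q of 2.61, and it was above only 34.0% of its list. When every peak had to reach a −log10 q of 3, Smc1b no longer had a peak in all 4 libraries. Stag1 had a fold enrichment of 3.71 and 3.40 in the controls, and 4.94 and 4.09 for the longer peak in Snf5 CKO 1 and the peak in Snf5 CKO 2, above 44.3%, 28.0%, 72.4% and 37.8% of the lists. Rad21l had 5.94, 5.60, 4.87 and 5.65, Smc3 4.65, 4.80, 5.99 and 5.37, Rad21 5.43, 4.11, 5.15 and 4.96, and Meikin 4.2, 4.11, 4.29 and 4.29 in the same order. The lists have no shared scale, so these values show no difference between libraries.

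Stag1 was the only one of the 9 genes with lost regions, and they lay away from its annotated start at 100643448. In the gene plus 10 kb on each side, Control 1 had 10 further peaks and Control 2 had 8, while Snf5 CKO 1 and Snf5 CKO 2 had 0. The lists held 27.4, 25.2, 24.3 and 16.9 Mb with the controls first and Snf5 CKO 1 before Snf5 CKO 2, and a median peak of 578, 560, 427 and 515 bp. Snf5 CKO 1 thus had the most peaks of the 4 and the shortest, and the part of these differences in the Stag1 counts was not tested. The further peaks fell into 14 merged regions, of which 4 were present in both controls, 6 in Control 1 alone and 4 in Control 2 alone. The 4 shared regions lay at chromosome 9, 100597435 to 100598135, 100599639 to 100600322, 100855774 to 100856353 and 100944766 to 100945430. The first is at the lower gene end, the upstream boundary of this plus-strand gene, and is the one that made Stag1 count as lost there.

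The further peaks were low in their lists, at a median above 20.9% of the peaks by fold enrichment in Control 1 and 15.95% in Control 2. They were 296 to 684 bp long in Control 1 and 200 to 583 bp in Control 2, with a fold enrichment of 2.78 to 4.32 and 2.97 to 3.73. Of them, 5 of 10 and 1 of 8 had a −log10 q of at least 3. With that limit 1 lost region was left, and with lists of equal length also 1. Without Control 1 the count was 8 and without Control 2 it was 10, since fewer libraries had to share a peak.

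Over Stag1 plus 10 kb on each side, peaks covered 7367 and 4883 bp in the controls and 1344 and 1675 bp in Snf5 CKO. Both Snf5 CKO values lie below both control values, as at 67.3% of the 15278 genes with covered bases in all libraries. The ratio was 0.250 (log2 ratio -2.00, SE 0.28, n = 2 per group, limma adjusted p = 0.0681), and 1.31% of genes had a lower log2 ratio. That adjusted p was the lowest of the fit, but other genes shared it, as the adjustment gives tied values (limma unadjusted p = 0.00131 for Stag1). No gene passed 0.05 in this fit (0.0% called in either direction, limma, 5249 genes and 1 of the 9 at an unadjusted p under 0.05), but Stag1 did without Snf5 CKO 1 (limma adjusted p = 0.0467, log2 ratio -1.84), with an adjusted p from 0.0467 to 0.404 over the alternatives. Without that library 13.8% of genes (2124 of 15352) were shorter, and the lone Snf5 CKO library was assumed to vary like the controls. Stag1 is a long gene, longer than 98.1% of genes. At least 4 lost regions were found in 0.260% of all genes (57 of 21887) and in 5.01% of the 419 genes at least as long, and at least 1 in 17.6% of all genes.

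**Figure D5:**
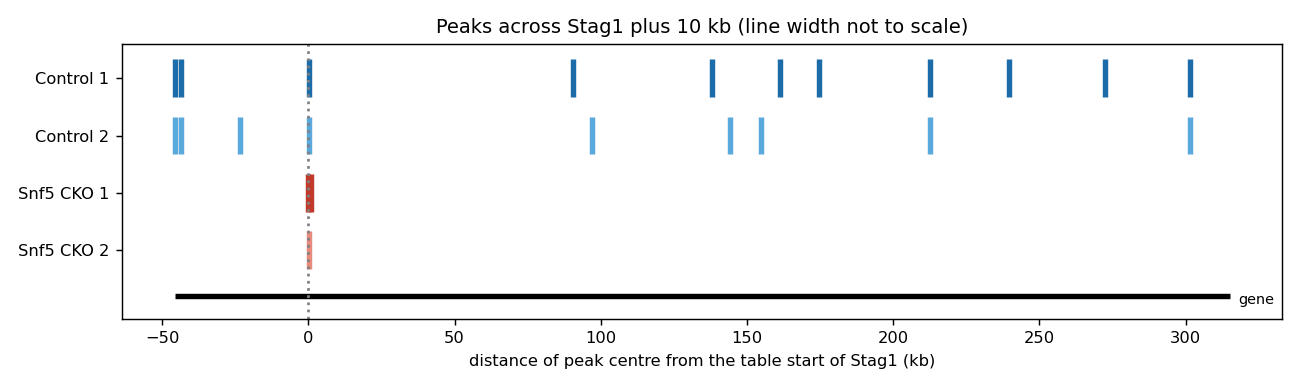
Peaks of each library across Stag1 plus 10 kb on each side, as ticks at the peak centres by distance from the annotated start (x axis, kb, ticks wider than the peaks). Control 1 and Control 2 have 10 and 8 peaks away from the start, and the Snf5 CKO rows have none.

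In the gene plus 10 kb, covered bases were lower in both Snf5 CKO libraries than in both controls at 6 of 9 genes, where 67.3% of all genes were, and higher in both at none (3.14%). The median log2 ratio was -0.44 over the 9 genes and -0.46 over all genes. It was -0.4 for the meiosis-specific genes, from -0.75 to 0.69. For the general genes it was -0.52, from -2.0 for Stag1 to 0.13 for Rad21, so these reached lower here. Stag3 had 2284 and 2275 bp in the controls and 1412 and 1918 bp in Snf5 CKO (log2 ratio -0.47, SE 0.22, limma adjusted p = 0.199), which includes a neighbouring region at Map11. Rec8, which overlapped at its kept region, had 913 and 918 bp against 855 and 823 bp here (log2 ratio -0.13, SE 0.17, limma adjusted p = 0.588). The interval also takes in part of a peak at the neighbouring gene Ipo4 in 3 libraries. Snf5 CKO 1 had a peak of 310 bp at Ipo4 as well, but it lay past the edge of the interval. The order of the groups at Rec8 rests on these parts of a neighbouring peak. At the 3 genes that overlapped (Sgo2a, Meikin and Rad21), the peaks beyond the kept region differed between replicates.

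At Rad21 a gained region, with a peak in both Snf5 CKO libraries and neither control, lay outside the gene at chromosome 15, 51951674 to 51952818. Peaks covered 1145 bp of it in Snf5 CKO 1, and 774 bp were covered in the other Snf5 CKO library, part of it more than 10 kb from the gene. Gained regions were found within 10 kb of 8.05% of all genes, and this one was not called when every peak had to reach a −log10 q of 3. With lists of equal length it was still called, and Smc3 then had 1 gained region as well.

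Inside Sgo2a, between its 2 starts, a region at 57988756 to 57990063 had no peak in Control 1 and one of 405 bp in Control 2, while Snf5 CKO 1 had 1241 bp covered and Snf5 CKO 2 had 853 bp. With it, covered bases in Sgo2a plus 10 kb were 925 and 1921 bp in the controls and 3206 and 1447 bp in Snf5 CKO, which overlap (log2 ratio 0.69, SE 0.55, limma adjusted p = 0.384). Meikin had further peaks, of 200 and 251 bp, in Control 1 alone. At Smc3 a region beyond the higher-coordinate gene end had 325 bp in Control 1, none in Control 2, and 206 and 200 bp in Snf5 CKO. At Smc1b a region inside the gene, shared with Fam118a, had a peak in Control 2 and Snf5 CKO 1 only.

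A further list of 25 genes held other cohesin subunits, loaders, release factors and regulators together with meiotic axis and recombination genes and Ctcf. Of these, 20 had a peak at a gene end in all 4 libraries, where 55.0% of all genes did, and 23 did at a gene end or annotated start (58.7% of all genes). At the gene ends 2 were lost (2.97% of all genes). Wapl, which encodes the factor that releases cohesin from chromatin, was lost at the gene end and kept at its start. Nipbl, which encodes the cohesin loader, was lost at the gene end, with 366 and 254 bp in the controls and none in Snf5 CKO. Nipbl also had 1 kept region within 10 kb, and it was not called lost when every peak had to reach a −log10 q of 3. At the gene ends Pttg1, the gene of securin, had peaks in some libraries only (in all 4 with its start added), as did Aurkc, the germ cell Aurora kinase, with a peak of 1333 bp in Snf5 CKO 1 alone. Within 10 kb Aurkc had 1 gained region, and 8.05% of all genes had at least 1. Sgo1, the other shugoshin gene, was open at its start alone.

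Peak length at gene ends could be tested for 20 of these genes. Of them 19 had a log2 ratio below 0, a count for which the share over all genes was not taken. Both Snf5 CKO libraries lay below both controls at 17, as at 77.3% of all genes. The median log2 ratio was -0.48, against -0.41 over all genes. At an adjusted p under 0.05 by limma, 3 were shorter in Snf5 CKO, where 8.06% of 12030 genes were, and 0 were longer (0.0333%).

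Tex11, a meiotic recombination gene on X, had 1028 and 905 bp in the controls and 316 and 357 bp in Snf5 CKO, without overlap (log2 ratio -1.52, SE 0.14, limma adjusted p = 0.0399). Plk1, a cell cycle kinase gene, had 2101 and 1634 bp against 864 and 906 bp (log2 ratio -1.07, SE 0.17, limma adjusted p = 0.0456). With lists of equal length Plk1 did not pass (log2 ratio -0.8, limma adjusted p = 0.129), nor with starts alone (log2 ratio -0.48, limma adjusted p = 0.0771). When every peak had to reach a −log10 q of 3, Plk1 no longer had a gene-end peak in all 4 libraries. Espl1, the gene of separase, which cuts the kleisins, had 900 and 886 bp against 511 and 556 bp (log2 ratio -0.74, SE 0.12, limma adjusted p = 0.046). All 3 genes were past the threshold by little, and none of them passed after centring on library medians, without Control 1, without Control 2 or without Snf5 CKO 2 (adjusted p 0.0646 to 0.351). Without Snf5 CKO 1, Tex11 passed (limma adjusted p = 0.0418) and Plk1 and Espl1 did not (0.0636 and 0.0541).

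Sycp3, an axis protein gene, had 1549 and 1558 bp in the controls and 840 and 601 bp in Snf5 CKO and missed the threshold (log2 ratio -1.13, SE 0.20, limma adjusted p = 0.0507). With annotated starts added it passed at 0.0496, and so 4 of 23 genes did, where 8.51% of all genes did. The highest log2 ratio was that of Hdac8, the deacetylase of SMC3, with 200 and 639 bp in the controls and 506 and 582 bp in Snf5 CKO (0.60, SE 0.59, limma adjusted p = 0.436), which was -0.24 without Control 1.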

How the data were processed

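ATAC-seq peak lists of 4 libraries in 2 groups were used, with 50 bp reads and the build mm10 per the submitters' processing notes. Those notes list MACS2 2.2.7.1, Picard 2.25.2, SAMtools 1.10, Bowtie2 2.4.2 and Trim Galore 0.6.5, with no role or order. The sources used here do not give calling thresholds, duplicate handling or any shift of read ends. The authors deposited a broad peak list per library, called separately, with a fold ratio, a −log10 p and −log10 q and a score per peak. The deposited score restates the −log10 q and was not analysed. Genes and starts came from RefSeq GRCm38.p6, whose main chromosomes are those of mm10.

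A gene was kept when peaks of all 4 libraries reached a window by 1 bp or more, lost when only the controls, and both of them, did so, and gained in reverse. Windows extended 1 kb to either side of the gene ends, and covered the gene plus 10 kb on each side, where peaks were clipped to the interval. Log2 lengths were fitted with limma 3.58.1 in R 4.3.3 over all genes or regions with a peak in all 4 libraries, with Benjamini-Hochberg adjustment and a threshold of 0.05. The fit was first run on simulated lengths. These had no shift common to the libraries of a group, so that run does not cover the shift seen here. With 2 libraries against 2, the smallest two-sided exact permutation p is 0.333. Depth is unknown. Alternatives changed the window (500 bp, 2 kb or starts), the overlap (200 bp), the −log10 q (at least 3), the list length, centring, the replicate block, or left out a library. The fit per kept region, the edges and the counts of lost regions in a gene were added after the data were seen.

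The genes and lists were chosen with earlier results of these data known. The text names all 9 genes. Of the 25 further genes it names those not kept at the gene ends, those past the threshold at the gene ends or with starts added (an addition made after their values were seen) and those with the lowest and highest log2 ratio.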

Additional observations from a re-analysis of the deposited data

How the results depend on the processing

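Of the 9 genes, 7 rather than 4 were kept at gene ends with annotated starts added, and 0 rather than 1 were lost with that window, with starts alone, when peaks had to reach a −log10 q of 3, and with lists of equal length. Leaving out a library gave 1 to 2 lost genes (Meikin joined Stag1 without Control 2) and 4 to 10 lost regions in Stag1. A −log10 q of 3 or lists of equal length gave 1 such region each, and the former left 1 further pathway gene lost. The causes were not tested, except that fewer peaks or libraries enter by construction.

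At gene ends, the count of genes with shorter peaks (970) became 1521 with a −log10 q of 3, 0 after centring on library medians, 0 with the replicate block, and 0 to 1678 with a library left out. The count with longer peaks (4) became 2 with the 2 kb window, 0 after centring, 0 with the replicate block, and 0 to 4 with a library left out. One gene of the set, Smc1b, passed with starts alone (1 gene, adjusted p = 0.0478, where 13.1% or 1316 of 10079 genes were shorter) and without Snf5 CKO 1 (0 to 1 with a library left out, adjusted p = 0.0434, where 13.8% were shorter). A lone library was assumed to vary like the other group. Of the further pathway genes, 5 rather than 3 were shorter with the 500 bp window and 5 with a −log10 q of 3, 1 for bases covered within 2 kb, 0 after centring, 0 with the replicate block, and 0 to 3 with a library left out. The median log2 ratio of the genes tested (-0.51) was -0.36 with the 2 kb window, for bases covered within 2 kb, with a −log10 q of 3 and with equal lists, -0.57 with starts alone, -0.62 with starts added, -0.07 after centring, and -0.53 to -0.36 with a library left out.

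In the gene plus 10 kb, lists of equal length gave 589 shorter and 20 longer genes and centring gave 16 and 4, where 0 passed otherwise. With a library left out, 0 to 2124 were shorter, 0 to 9 longer, and 0 to 1 of the 9 genes passed (Stag1 without Snf5 CKO 1, where 13.8% of genes were shorter). Centred medians of the 9 genes were 0.08 there and 0.02 per kept region, where leaving out a library gave -0.60 to -0.35. The difference of medians, meiosis-specific minus general, was 0.14 per kept region and 0.01 to 0.39 with a library left out.

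Replicate numbers are shared by the groups, and no label pairs them. Control 1 minus Control 2 had a correlation of -0.014 with Snf5 CKO 1 minus Snf5 CKO 2 at gene ends, so the block is given only as an alternative. It changed the call of none of the 9 genes.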
